A study of Mus musculus with 7 samples.

Results

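The inflammasome and pyroptosis genes examined here were Nlrp3, Nlrc4, Pycard, Casp1, Casp4, Gsdmd, Il1b, Il18, Il1rn and Il18bp, taken as the rows of the deposited count table that carry these symbols. All 10 were present among the 21878 genes of the table. Of these, 9 had enough reads to be among the 12997 genes tested, and Nlrc4 was too low. The samples were tumours formed by B16F10 cells, an established pigmented melanoma line, after grafting into immunocompetent female C57BL/6J mice. The 4 Zelnorm libraries (MBZ_9, MBZ_11, MBZ_13 and MBZ_15) came from tumours of mice that received oral Zelnorm, 1.25 mg/kg once in 2 days. The 3 NC libraries (NC_5, NC_6 and NC_10) came from tumours of control mice. Whether each library came from its own animal is not stated in the labels. The treatment label of the MBZ samples reads Zelnorm and does not say what the letters MBZ stand for. Zelnorm is tegaserod, an agonist of a serotonin receptor. Mice were assigned to groups at random after tumours could be felt. No vehicle for the control mice and no day of harvest is stated in the labels. The series title names the immune microenvironment of the tumour as the route of interest, and each library is whole-tumour RNA, in which fewer cells of a type and less RNA per cell cannot be told apart.

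Inflammasomes are protein platforms that assemble in the cytosol when a sensor detects microbial products or cell damage. NLRP3 and NLRC4 are such sensors. The adaptor ASC, encoded by Pycard, links a sensor to pro-caspase-1, which is then activated and cleaves the precursors of the cytokines IL-1β and IL-18. Caspase-1, or mouse caspase-4 (widely called caspase-11) after it detects bacterial lipopolysaccharide, also cleaves gasdermin D, whose fragment opens pores in the plasma membrane. Cytokine release and the lytic death called pyroptosis follow. The receptor antagonist encoded by Il1rn blocks the IL-1 receptor, and the binding protein encoded by Il18bp captures IL-18. Cleavage and release are protein events that messenger RNA counts do not show.

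Library totals lay between 16903598 and 19666598 counts in Zelnorm tumours and between 18079258 and 19547390 counts in NC tumours. Levels are given as CPM, counts divided by the TMM-scaled library size, and a floor of 3 counts corresponded to between 0.153 and 0.178 CPM. Summed pigment cell markers ran from 34480 to 36860 CPM in Zelnorm tumours and from 31360 to 35530 CPM in NC tumours, so transcripts of the grafted cell type were abundant in every library. Skeletal muscle markers ran from 7.65 to 390 CPM in Zelnorm tumours and from 6.27 to 44.7 CPM in NC tumours, with the 3 highest sums in MBZ_15, MBZ_11 and NC_5. NC_10 stood apart from the other NC libraries in several of the values below, and fold changes without it are given for all tested genes of the set.

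All 9 tested genes had higher fitted levels in Zelnorm tumours than in NC tumours, but no gene of the set passed the test across all genes. Their median log2 fold change was 0.73, against 0.00 over all genes tested, and 50.2% of all tested genes had a fold change above 0. With edgeR's quasi-likelihood test and Benjamini-Hochberg adjustment at 0.05, 0 of 9 were called, and 0.0308% of all tested genes were called higher. With DESeq2, 1 of them (Il1rn) was called, against 1.42% of the genes DESeq2 tested that were called higher. At an unadjusted edgeR p under 0.05, 5 of 9 were higher (Casp1, Il1rn, Gsdmd, Il18bp and Pycard) and 0 were lower, against 6.94% and 3.38% of all tested genes. For Casp1, Gsdmd and Il1rn, every Zelnorm library lay above every NC library, which was so for 5.33% of all tested genes. These genes share libraries and partly cell types, so the counts are a description of the set and not independent results. The set, and the lists below, were chosen with earlier results of these data known. The counts by unadjusted p and by overlap were added after seeing the data. Their distance from the shares of all genes is therefore no test of the set.

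**Figure D1:**
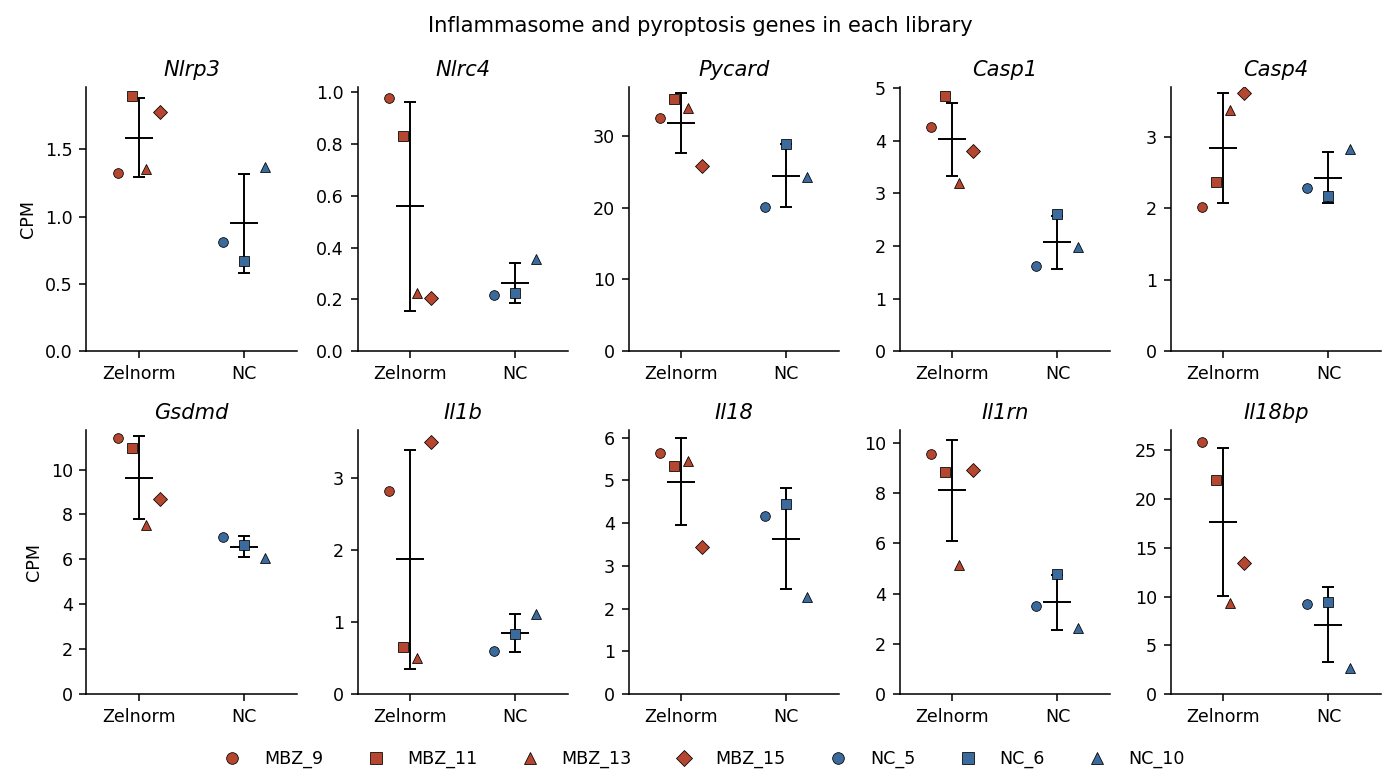
Level of each gene in CPM (vertical axes, each from 0) in the 4 Zelnorm libraries (red, left) and the 3 NC libraries (blue, right). Long ticks are group means and bars are SD. Casp1, Gsdmd and Il1rn show no overlap between groups, whereas Casp4 and Il1b overlap.

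Upstream sequence is shown for 5 genes, from RefSeq on GRCm38.p6: Casp1 and Il1rn, whose groups did not overlap, Il18bp with the largest fold change over all 7 libraries, Casp4 as the neighbour of Casp1, and Il1b, whose fold change had the largest SE. Each run is the 250 bases before a RefSeq transcription start, written 5′ to 3′ on the strand of the gene. Capitals mark matches to 1 of the 5 motifs described after the sequences. Casp1 is at chr9:5298267-5298516 on the plus strand, Casp4 at chr9:5308599-5308848 on the plus strand, the first and second Il1rn starts at chr2:24336610-24336859 and chr2:24345041-24345290 on the plus strand, Il18bp at chr7:102018233-102018482 on the minus strand and Il1b at chr2:129371140-129371389 on the minus strand.
Casp1: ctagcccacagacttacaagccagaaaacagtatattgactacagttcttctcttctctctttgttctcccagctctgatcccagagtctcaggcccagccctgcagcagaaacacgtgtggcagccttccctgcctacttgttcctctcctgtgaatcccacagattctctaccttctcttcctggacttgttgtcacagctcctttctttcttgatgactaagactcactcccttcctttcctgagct
Casp4: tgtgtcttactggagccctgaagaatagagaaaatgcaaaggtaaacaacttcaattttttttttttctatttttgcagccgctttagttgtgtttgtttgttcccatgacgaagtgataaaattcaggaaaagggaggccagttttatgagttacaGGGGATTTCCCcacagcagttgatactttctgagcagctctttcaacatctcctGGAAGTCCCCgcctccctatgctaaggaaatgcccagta
Il1rn first start: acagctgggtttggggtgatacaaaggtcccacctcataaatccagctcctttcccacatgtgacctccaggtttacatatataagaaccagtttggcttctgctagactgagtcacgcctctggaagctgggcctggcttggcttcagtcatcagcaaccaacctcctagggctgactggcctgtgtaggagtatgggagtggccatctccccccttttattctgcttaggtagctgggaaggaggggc
Il1rn second start: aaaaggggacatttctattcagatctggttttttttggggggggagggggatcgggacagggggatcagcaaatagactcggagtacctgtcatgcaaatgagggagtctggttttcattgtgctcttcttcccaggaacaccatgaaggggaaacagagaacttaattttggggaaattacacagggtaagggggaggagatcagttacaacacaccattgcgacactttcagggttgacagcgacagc
Il18bp: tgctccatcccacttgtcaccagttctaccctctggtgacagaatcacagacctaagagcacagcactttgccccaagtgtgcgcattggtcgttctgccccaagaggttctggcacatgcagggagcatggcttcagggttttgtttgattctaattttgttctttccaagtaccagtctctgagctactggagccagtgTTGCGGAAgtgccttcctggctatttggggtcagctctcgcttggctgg
Il1b: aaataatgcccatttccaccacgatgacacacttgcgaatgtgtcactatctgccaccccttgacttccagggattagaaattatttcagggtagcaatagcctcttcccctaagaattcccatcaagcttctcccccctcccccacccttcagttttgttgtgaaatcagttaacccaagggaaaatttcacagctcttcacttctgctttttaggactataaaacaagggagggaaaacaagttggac

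A promoter was found for 9 of the 10 genes, all but Gsdmd. The motifs, searched on both strands, were the interferon-response repeat GAAANNGAA, the STAT motif TTCNNNGAA, the NF-κB motif by name, the C/EBP motif TTGCNNAA and the PU.1 motif GAGGAAGT. Over 32851 mouse promoter windows of this length they were present in 7.13%, 7.02%, 7.25%, 9.56% and 2.44% of windows, in that order. The Casp4 window held NF-κB matches from -93 to -83 and from -39 to -30 relative to the start (the first is 2 overlapping matches), and a window of Nlrp3 held one from -186 to -177. The Il18bp window held a C/EBP match from -49 to -42. Windows of Nlrc4 and Pycard also had C/EBP matches, and that of Pycard a PU.1 match from -44 to -37. The windows of Casp1, Il1b, Il18 and Il1rn had no match to the 5 motifs, and no window of the 9 genes had the interferon-response repeat or the STAT motif. No match says only that these letters are not in this window, and a match is not evidence of binding. Il1rn has 3 RefSeq starts, with 8431 bases between the first and the second and 80 between the second and the third. Secreted and intracellular forms of the antagonist are known to come from different starts, and gene counts do not tell which was used.

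Levels per length of exon, in CPM per kb, spanned a wide range within the set. Pycard averaged 14.9 ± 1.96 CPM per kb in Zelnorm tumours and 11.5 ± 2.06 in NC tumours (SD, n = 4 and 3), and Il18bp 12.6 ± 5.40 in Zelnorm tumours and 5.07 ± 2.74 in NC tumours. Il18 and Gsdmd followed, with means of 5.78 and 5.38 CPM per kb in Zelnorm tumours and 4.23 and 3.66 in NC tumours. The means of Casp4, Casp1 and Il1rn lay between 1.98 and 3.01 CPM per kb in Zelnorm tumours and between 1.35 and 1.69 in NC tumours. Il1b averaged 1.38 ± 1.12 CPM per kb in Zelnorm tumours and 0.625 ± 0.191 in NC tumours. The sensors were lowest. Nlrp3 averaged 0.391 ± 0.0721 CPM per kb in Zelnorm tumours and 0.234 ± 0.0907 in NC tumours, and Nlrc4 0.143 ± 0.103 in Zelnorm tumours and 0.0676 ± 0.0198 in NC tumours. Among neighbours in the order of NC means, the NC libraries of Il18bp, Il18 and Gsdmd overlapped, and so did Casp4, Casp1 and Il1rn among themselves. Pycard had the highest mean of the set in both groups, and the sensors the lowest.

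**Figure D2:**
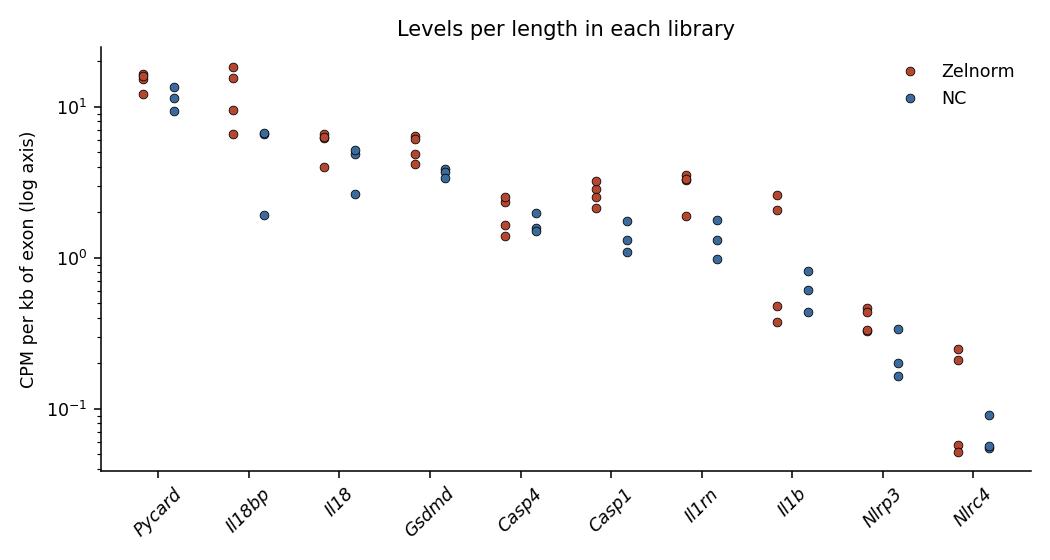
Level of each gene in CPM per kb of exon (vertical log axis) in every library, Zelnorm libraries in red at the left of each pair and NC libraries in blue, ordered by the mean of the NC libraries. By group mean Pycard is highest and Nlrc4 lowest, while Il18bp is above Pycard in MBZ_9.

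Nlrp3 (chr11:59541569-59566955 in GRCm38), the sensor that responds to many kinds of cell damage, had 1.32, 1.90, 1.35 and 1.78 CPM in MBZ_9, MBZ_11, MBZ_13 and MBZ_15, against 0.813, 0.668 and 1.37 CPM in NC_5, NC_6 and NC_10. The groups overlapped through NC_10, which lay above both MBZ_9 and MBZ_13, while the other 2 NC libraries were lowest of all 7. Nlrp3 had a log2 fold change of 0.73 ± 0.34 (SE), with an adjusted p of 0.498 by edgeR, and of 1.09 without NC_10. Nlrc4 (chr17:74426255-74459144), which with NAIP proteins detects bacterial flagellin and secretion systems, had 17, 14, 4 and 4 counts in the Zelnorm libraries against 4, 4 and 7 counts in the NC libraries. MBZ_9 and MBZ_11 were high and the other 5 libraries alike, a little above the floor of 3 counts. Of the 50-base runs in its exons, 1.09% also occur in other genes. Fitted without the filter on low counts, its log2 fold change was 1.03 with an adjusted p of 0.710 by edgeR.

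Pycard (chr7:127991373-127993867), the adaptor, had 32.5, 35.1, 33.9 and 25.8 CPM in the Zelnorm libraries, against 20.1, 28.9 and 24.3 CPM in the NC libraries. The only overlap was that MBZ_15 lay below NC_6. Its log2 fold change of 0.38 ± 0.14 was small and had an adjusted p of 0.362 by edgeR (unadjusted p 0.0181). An exon of the predicted gene Gm45205 on the opposite strand overlaps 485 bases of its exons in GENCODE, and the strand setting of the counting is not stated in the labels.

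Casp1, the protease at the centre of the canonical inflammasome, averaged 4.03 ± 0.697 CPM in Zelnorm tumours and 2.07 ± 0.504 CPM in NC tumours (SD, n = 4 and 3). By library it had 4.26, 4.86, 3.21 and 3.81 CPM in Zelnorm tumours, against 1.62, 2.62 and 1.97 CPM in NC tumours. The lowest Zelnorm library, MBZ_13, lay above the highest NC library, NC_6. This was a log2 fold change of 0.96 ± 0.25, above that of 97.6% of the genes tested, with an adjusted p of 0.207 by edgeR and 0.0508 by DESeq2. Leaving out each library in turn gave log2 fold changes from 0.81 to 1.15. Casp4, the sensor protease of the non-canonical route, had 2.01, 2.37, 3.38 and 3.61 CPM in Zelnorm libraries, against 2.27, 2.17 and 2.83 CPM in NC libraries. MBZ_9 and MBZ_11, the highest 2 libraries for Casp1, were the lowest Zelnorm libraries for Casp4, and the groups overlapped. The log2 fold change of Casp4 was 0.23 ± 0.27 with an adjusted p of 0.824 by edgeR, and lay between 0.086 without MBZ_15 and 0.36 without MBZ_9.

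Casp1 and Casp4 are neighbours on the plus strand of GRCm38, at chr9:5298517-5307281 and chr9:5308849-5336791, followed by Casp12, another inflammatory-type caspase gene, at chr9:5345442-5373034. Casp12 had 7.25, 7.82, 4.39 and 5.49 CPM in Zelnorm libraries, against 3.03, 3.17 and 1.67 CPM in NC libraries. Every Zelnorm library lay above every NC library for Casp12, as for Casp1. Casp12 was named for its small p among other death effector genes, so this separation partly follows from that choice. The log2 fold change of Casp12 was 1.25 ± 0.28, with an adjusted p of 0.152 by edgeR and 0.00377 by DESeq2. The exons of Casp1 and Casp4 share no run of 50 bases with each other or with another gene, so their counts can be told apart at that read length. The count of Casp4 over that of Casp1 was 0.473, 0.488, 1.05 and 0.947 in Zelnorm libraries, against 1.40, 0.830 and 1.44 in NC libraries. The ratio was lowest in MBZ_9 and MBZ_11, and the groups overlapped because NC_6 lay below MBZ_13 and MBZ_15.

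Gsdmd (chr15:75862144-75867408), the pore former, averaged 9.64 ± 1.84 CPM in Zelnorm tumours and 6.56 ± 0.463 CPM in NC tumours (SD, n = 4 and 3). The values were 11.4, 11.0, 7.54 and 8.69 CPM in the Zelnorm libraries, against 6.99, 6.63 and 6.07 CPM in the NC libraries. The groups did not overlap, although MBZ_13 was close to NC_5, and the spread was wider among Zelnorm libraries. For Gsdmd the log2 fold change was 0.55 ± 0.17, with an adjusted p of 0.282 by edgeR and 0.150 by DESeq2. Against the adaptor, the count of Gsdmd over Pycard was 0.351, 0.312, 0.223 and 0.337 in Zelnorm libraries and 0.348, 0.229 and 0.250 in NC libraries. The lowest of these ratios was a Zelnorm library and the 2 highest were 1 library of each group, so no separation was visible.

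Il1b (chr2:129364569-129371164), which encodes the precursor of IL-1β, had 2.82, 0.651, 0.507 and 3.51 CPM in the Zelnorm libraries, against 0.596, 0.835 and 1.11 CPM in the NC libraries. MBZ_9 and MBZ_15 were above all NC libraries, whereas MBZ_11 was within the NC range and MBZ_13 below it. The log2 fold change of 1.14 ± 0.65 had an adjusted p of 0.591 by edgeR, and lay between 0.63 without MBZ_15 and 1.45 without MBZ_13. The 2 libraries with most Il1b differed in some neutrophil-associated genes, which were chosen after their values were seen. MBZ_15 had 21, 30, 18 and 48 counts of S100a8, S100a9, Cxcr2 and the chemokine gene Cxcl2, and MBZ_9 had 2, 1, 4 and 2. NC_10 had 15, 6, 10 and 4 counts of the same genes, with Il1b at 1.11 CPM. Retnlg, a neutrophil marker, followed another order, with 44 counts in NC_10, 18 in MBZ_13, 11 in MBZ_15 and 4 in MBZ_9. Summed neutrophil markers were 7.48 to 18.4 CPM in Zelnorm libraries and 4.44 to 17.2 CPM in NC libraries. The sum was 10.6 CPM in MBZ_9 and 18.4 CPM in MBZ_15. Ly6g, Camp and Ngp were at 3 counts or fewer in every library. Of the 5 neutrophil markers tested, 3 were higher and 2 lower, 0 of them at an unadjusted p under 0.05 in edgeR. Their part in the Il1b level was not tested. The antisense gene Il1bos overlaps 25 bases of Il1b exons.

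Il18 (chr9:50554700-50581841), whose precursor is made without induction in many cell types, had 5.64, 5.33, 5.46 and 3.45 CPM in Zelnorm libraries, against 4.17, 4.46 and 2.28 CPM in NC libraries. MBZ_9, MBZ_11 and MBZ_13 were nearly equal and above all NC libraries, and MBZ_15 was below both NC_5 and NC_6. For Il18 the log2 fold change was 0.45 ± 0.27 with an adjusted p of 0.609 by edgeR, and it was 0.20 without NC_10. The order of the Zelnorm libraries thus differed between the cytokines, MBZ_15 being highest for Il1b and lowest for Il18.

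Il1rn (chr2:24336860-24351491), the IL-1 receptor antagonist, averaged 8.11 ± 2.02 CPM in Zelnorm tumours and 3.65 ± 1.09 CPM in NC tumours (SD, n = 4 and 3). By library it had 9.55, 8.82, 5.12 and 8.94 CPM in Zelnorm tumours, against 3.52, 4.79 and 2.63 CPM in NC tumours. MBZ_13 was the only Zelnorm library near the NC range, and it lay just above NC_6. Il1rn had a log2 fold change of 1.16 ± 0.26. The adjusted p was 0.152 by edgeR and 0.00360 by DESeq2, so the call depended on the tool. Without 1 library at a time the log2 fold change stayed between 0.96 and 1.39.

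Il18bp (chr7:102015074-102018232), the IL-18 binding protein, is known to be induced by interferon-γ. With all libraries it had the largest fold change of the set, a rank it lost when NC_10 or MBZ_11 was left out. It had 25.9, 21.9, 9.34 and 13.5 CPM in Zelnorm libraries, against 9.26, 9.41 and 2.68 CPM in NC libraries. MBZ_9 and MBZ_11 were well above all others, MBZ_13 lay between NC_5 and NC_6, and NC_10 was far below the rest. The log2 fold change was 1.31 ± 0.43 with an adjusted p of 0.315 by edgeR (unadjusted p 0.0110), and it was 0.91 without NC_10. An exon of Numa1 on the opposite strand overlaps 80 bases of its exons.

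Each cytokine was also set against its own inhibitor within a library. The count of Il1rn over that of Il1b was 3.39, 13.6, 10.1 and 2.55 in Zelnorm libraries, against 5.91, 5.73 and 2.36 in NC libraries. The groups overlapped, with NC_5 and NC_6 inside the Zelnorm range and NC_10 just below it, and the mean log2 ratio was 0.44 higher in Zelnorm tumours, between 0.011 and 0.84 when 1 library was left out. The count of Il18bp over that of Il18 was 4.59, 4.11, 1.71 and 3.90 in Zelnorm libraries, against 2.22, 2.11 and 1.18 in NC libraries. All Zelnorm libraries but MBZ_13 were above all NC libraries. The mean log2 ratio was 0.92 higher in Zelnorm tumours, between 0.63 and 1.25 when 1 library was left out. These ratios of counts are not corrected for length. In CPM per kb, Il1rn was above Il1b in all 7 libraries, and Il18bp was above Il18 in all but NC_10, where it had 1.91 CPM per kb against 2.65 for Il18.

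**Figure D3:**
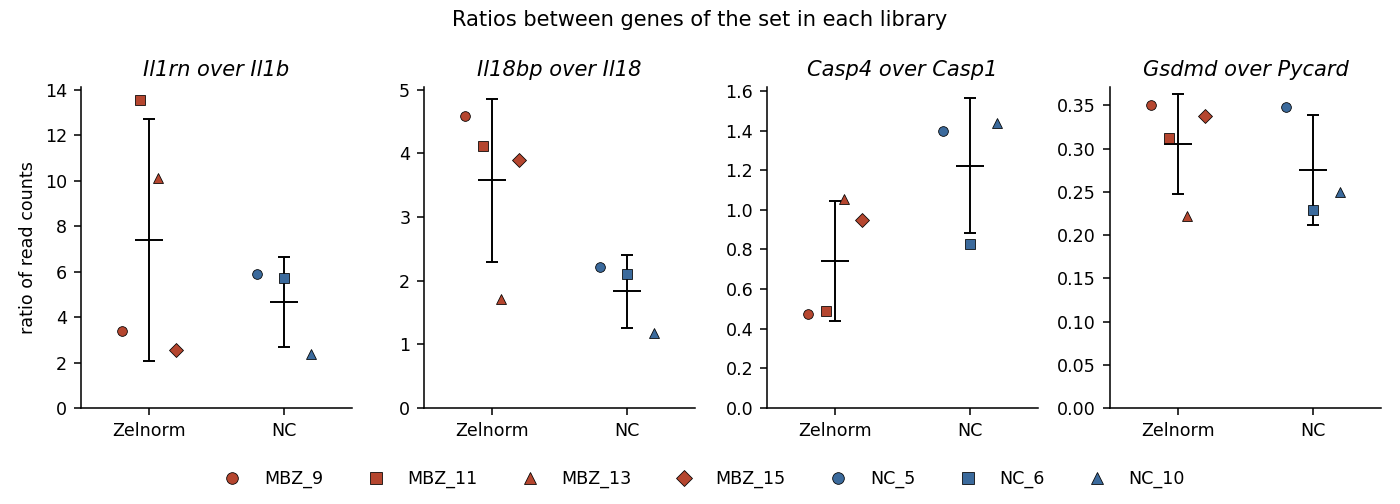
Ratio of read counts of 2 genes (vertical axes, no unit, each from 0) in the 4 Zelnorm libraries (red, left) and the 3 NC libraries (blue, right), with group mean (long tick) and SD (bar). The groups overlap in all 4 panels, and Il18bp over Il18 overlaps only through MBZ_13.

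Across the set, MBZ_13 was the lowest Zelnorm library for 5 of the 10 genes and the highest for 0. MBZ_9 was highest for 5 and lowest for 2. NC_10 was the highest NC library for 4 genes (Casp4, Nlrp3, Nlrc4 and Il1b) and the lowest for 4 others (Gsdmd, Il18, Il1rn and Il18bp). Irf1 and Gbp2, interferon-response genes chosen after their values were seen, had 18.6 and 14.5 CPM in NC_10. In the other 2 NC libraries, Irf1 had 81.1 and 80.3 CPM and Gbp2 78.5 and 90.2 CPM, and in Zelnorm libraries Irf1 had 67.2 to 123 CPM and Gbp2 69.8 to 173 CPM. NC_10 was low for these genes and for Il18bp. Irf8, another interferon regulatory factor gene, had 14.1 CPM in NC_10, against 20.3 and 18.2 CPM in NC_5 and NC_6. The summed macrophage markers of NC_10 were 634 CPM, against 334 and 304 CPM in NC_5 and NC_6. Any relation between these levels was not tested.

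**Figure D4:**
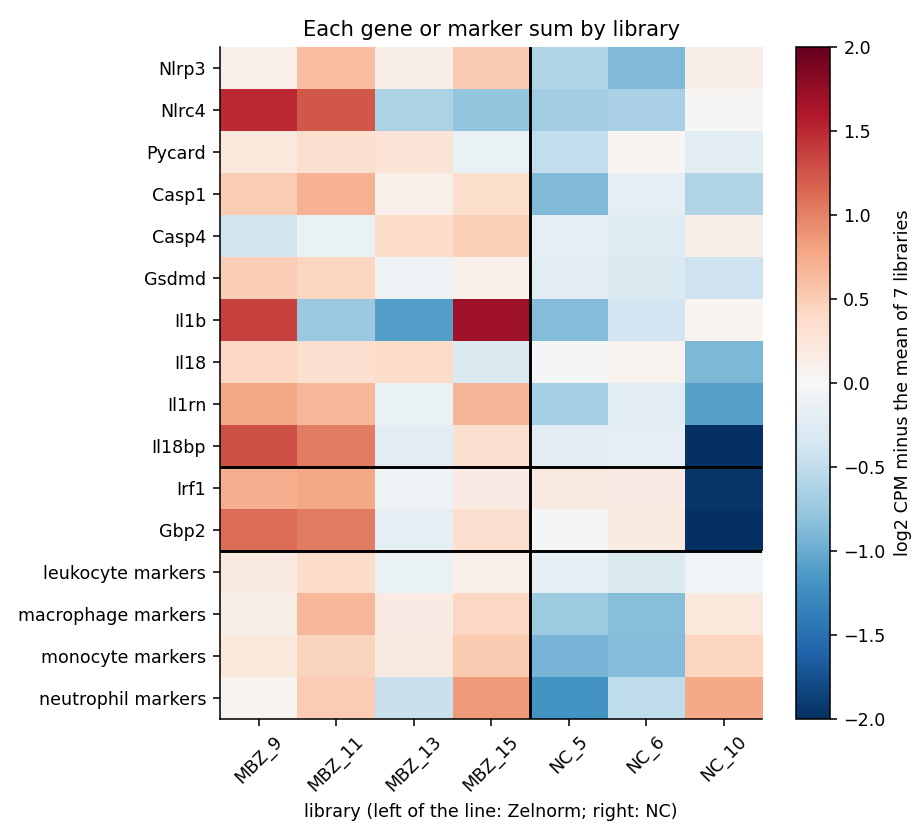
Log2 level of each gene, and of each summed marker list, minus its mean over the 7 libraries (colour scale, cut at -2 and 2; red higher, blue lower), with the Zelnorm libraries left of the vertical line and the NC libraries right of it. NC_10 is low for Il18bp, Il1rn, Irf1 and Gbp2 and not for macrophage or monocyte markers.

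Markers of macrophages and monocytes, cells known to express inflammasome genes, also had higher fitted levels in Zelnorm tumours. Neutrophil markers, given above with Il1b, went both ways. All 12 macrophage markers were higher in Zelnorm tumours, with summed levels of 592 to 871 CPM in Zelnorm libraries and 304 to 634 CPM in NC libraries. An unadjusted p under 0.05 by edgeR was found for 8 of them, and 6.94% of all tested genes were higher at that p. All 8 monocyte markers were higher, with sums of 80.0 to 101 CPM in Zelnorm libraries and 36.8 to 94.2 CPM in NC libraries. All 14 leukocyte markers were higher, with sums of 587 to 834 CPM in Zelnorm libraries and 527 to 621 CPM in NC libraries. Of 8 dendritic cell markers tested, 6 were higher and 2 lower, with sums of 16.6 to 24.6 CPM in Zelnorm libraries and 15.1 to 18.0 CPM in NC libraries. Of these lists, edgeR called 0 markers, and 0.0308% of all tested genes were called higher. DESeq2 called 2 macrophage, 4 monocyte, 5 leukocyte and 0 dendritic cell markers, against 1.42% of its tested genes called higher. None of these markers was at 0 in all libraries. NC_10 had the highest macrophage, monocyte and leukocyte sums of the NC libraries. Without NC_10, edgeR called 10 macrophage, 5 monocyte and 5 leukocyte markers, all higher. Calls over all genes then rose from 4 to 161 of 13111 tested, 157 of them higher. Leaving out NC_10 lowers the NC levels of these lists, because it had their highest NC sums. The called markers included Adgre1, Csf1r and Ptprc, which were chosen after their values were seen. Their adjusted p values by edgeR were 0.0246, 0.0248 and 0.0252. With all libraries these were 0.404, 0.584 and 0.202. Without MBZ_15, edgeR called 1 monocyte marker, Ly6c2, and 21 of all 12878 genes tested. Leaving out any other single library gave 0 calls among the macrophage, monocyte, leukocyte and dendritic cell markers. Keratinocyte markers, of which 2 of 15 could be tested and Ivl was at 0 throughout, summed to 3.51 to 31.7 CPM in Zelnorm libraries and 5.68 to 6.93 CPM in NC libraries, MBZ_11 being high. Muscle markers had the sums given above. All 11 tested ones were higher, with a median log2 fold change of 2.93. An unadjusted p under 0.05 by edgeR was found for 7 of the 11, and edgeR and DESeq2 called 0. The part of these cells in the levels of the inflammasome genes was not tested.

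Beyond the 10 genes, 12 of 15 other sensors and their partners could be tested, of which 10 were higher and 2 lower, and edgeR called 0 and DESeq2 called 1. Their median log2 fold change was 0.49, and an unadjusted p under 0.05 was found for 4 higher genes and 1 lower gene. At that p, 6.94% of all tested genes were higher and 3.38% lower. Every Zelnorm library lay above every NC library for 5.33% of all tested genes, and DESeq2 called 1.42% of its tested genes higher. Genes named from this list and the next ones were mainly those with the smallest p of their list, so their separation partly follows from that choice. Nod1, a cytosolic sensor of bacterial cell wall fragments, had 27.2, 24.0, 19.5 and 21.4 CPM in Zelnorm libraries, against 13.7, 15.9 and 9.41 CPM in NC libraries, without overlap. Its log2 fold change was 0.83 ± 0.17, with an adjusted p of 0.152 by edgeR and 0.00106 by DESeq2. Nlrp10, a family member without leucine-rich repeats, went the other way, with 3.33 ± 0.873 CPM in Zelnorm tumours and 5.54 ± 0.368 CPM in NC tumours. Every Zelnorm library lay below every NC library for Nlrp10, and the log2 fold change was -0.74 ± 0.22 with an adjusted p of 0.268 by edgeR. Mefv, which encodes pyrin, and Aim2, the sensor of cytosolic DNA, had log2 fold changes of 1.08 ± 0.46 and 0.89 ± 0.39, with adjusted p of 0.452 and 0.472 by edgeR. Nlrp1b had 8, 13, 4 and 8 counts in Zelnorm libraries and 7, 4 and 11 counts in NC libraries, and was not tested.

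Among other pore formers and death effectors, 11 of 18 could be tested, 8 higher and 3 lower, with a median log2 fold change of 0.12. At an unadjusted p under 0.05, 4 were higher and 0 lower, against 6.94% and 3.38% of all tested genes. From this list edgeR called 0 and DESeq2 called 1, Casp12, against 1.42% of the genes DESeq2 tested that were called higher. Zbp1, a sensor of Z-form nucleic acid that can start necroptosis, averaged 38.8 ± 12.7 CPM in Zelnorm tumours and 16.0 ± 8.31 CPM in NC tumours, without overlap. Its log2 fold change was 1.28 ± 0.36, with an adjusted p of 0.239 by edgeR. Gsdme, a gasdermin cut by caspase-3 and listed under its older symbol Dfna5, averaged 6.56 ± 0.825 CPM in Zelnorm tumours and 6.07 ± 0.482 CPM in NC tumours. Its log2 fold change of 0.12 ± 0.15 was smaller than its SE, and the adjusted p was 0.851 by edgeR.

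In the IL-1 family, 15 of the 20 other ligands, receptors and signalling genes in the table could be tested, 14 higher and 1 lower, with a median log2 fold change of 0.34. At an unadjusted p under 0.05, 4 were higher and 0 lower, against 6.94% and 3.38% of all tested genes, and 0 were called by edgeR or by DESeq2. Both chains of the IL-18 receptor were low but separated the groups. Il18r1, the ligand-binding chain, had 13, 21, 13 and 14 counts in Zelnorm libraries, against 2, 10 and 5 counts in NC libraries, with a log2 fold change of 1.47 ± 0.52 and an adjusted p of 0.362 by edgeR. Il18rap, the accessory chain, had 22, 21, 19 and 21 counts in Zelnorm libraries, against 2, 12 and 13 counts in NC libraries, with a log2 fold change of 1.26 ± 0.48 and an adjusted p of 0.395 by edgeR. Without NC_5, the lowest library for both chains, the log2 fold changes were 1.08 for Il18r1 and 0.80 for Il18rap. Myd88, the adaptor shared by the IL-1 and IL-18 receptors, averaged 20.6 ± 1.62 CPM in Zelnorm tumours and 15.3 ± 1.52 CPM in NC tumours, without overlap, with a log2 fold change of 0.43 ± 0.10 and an adjusted p of 0.163 by edgeR.

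The IL-1 receptors did not separate the groups. Il1r1, the signalling receptor, and Il1r2, the decoy, had log2 fold changes of 0.41 ± 0.34 and 0.16 ± 0.43, with adjusted p of 0.738 and 0.937 by edgeR. Il1r1 lay between 0.15 without NC_6 and 0.94 without NC_10, and Il1r2 between -0.02 without NC_10 and 0.42 without MBZ_13. Il1a, the second IL-1 ligand, had 7, 3, 9 and 11 counts in Zelnorm libraries and 4, 10 and 3 counts in NC libraries and was not tested. Of 13 genes known to be induced by IL-1, 7 could be tested and all 7 were higher, with a median log2 fold change of 0.78. The unadjusted p was under 0.05 for 1 of them, and 6.94% of all tested genes were higher at that p. Neither edgeR nor DESeq2 called any. Saa3, an acute-phase protein gene, had 11.6, 19.4, 5.68 and 35.2 CPM in Zelnorm libraries, against 8.67, 3.79 and 11.2 CPM in NC libraries. MBZ_15 was highest for Saa3 as for Il1b, and the groups overlapped. The log2 fold change of Saa3 was 1.19 ± 0.53 with an adjusted p of 0.483 by edgeR, and 0.62 without MBZ_15. Nos2, the inducible nitric oxide synthase, and Nfkbiz, a nuclear regulator of NF-κB, had log2 fold changes of 0.78 ± 0.37 and 0.39 ± 0.22, with adjusted p of 0.512 and 0.580 by edgeR. Nos2 had 0.46 without MBZ_15.

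Of 20 other regulators of inflammasome assembly, 19 could be tested, 14 higher and 5 lower, with a median log2 fold change of 0.30. At an unadjusted p under 0.05, 8 were higher and 0 lower, against 6.94% and 3.38% of all tested genes. From this list edgeR called 0 and DESeq2 called 1, against 1.42% of the genes DESeq2 tested that were called higher. Syk, a kinase that acts upstream of NLRP3 in myeloid cells, averaged 20.9 ± 3.46 CPM in Zelnorm tumours and 13.9 ± 3.00 CPM in NC tumours, without overlap. Its log2 fold change was 0.59 ± 0.16, with an adjusted p of 0.224 by edgeR and 0.0385 by DESeq2. Without NC_10, edgeR also called Syk, with a log2 fold change of 0.78 and an adjusted p of 0.0380. That fit called 161 of 13111 genes. Gbp5, an interferon-induced GTPase, had a log2 fold change of 1.07 ± 0.37 and Txnip, which binds thioredoxin, one of 0.30 ± 0.10, with adjusted p of 0.348 and 0.308 by edgeR.

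**Figure D5:**
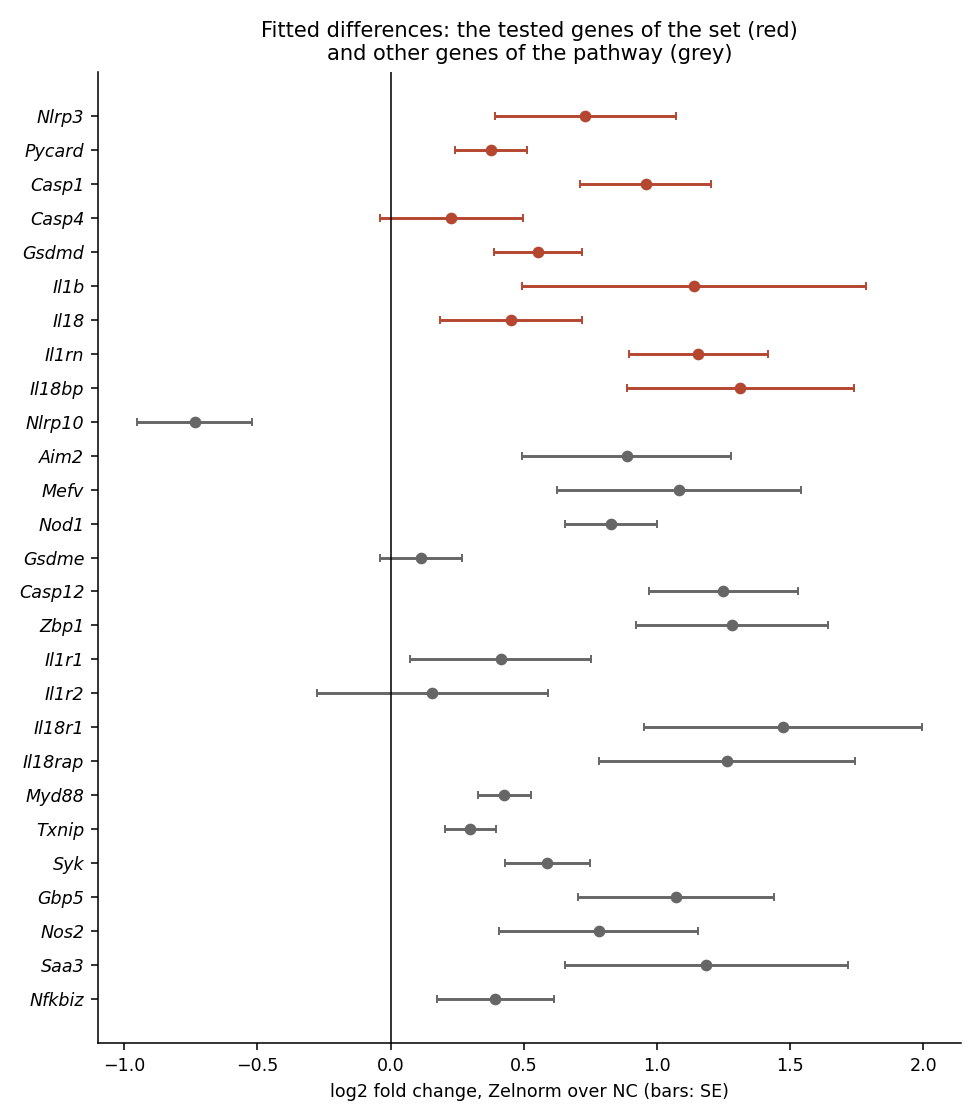
Fitted log2 fold change, Zelnorm over NC (horizontal axis), of the 9 tested genes of the set (red) and of 18 other pathway genes (grey), with SE bars. All red points are above 0, Nlrp10 is the only gene below 0, and no gene shown passed the adjusted threshold in edgeR.

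When MBZ_11, MBZ_15 and NC_5, the libraries highest in muscle transcripts, were left out, 2 libraries remained in each group. The fitted log2 fold changes were then 0.70 for Casp1, 0.57 for Gsdmd, 0.98 for Il1rn and 1.55 for Il18bp. For the others they were 0.10 for Casp4, 0.38 for Nlrp3, 0.31 for Pycard, 0.76 for Il1b and 0.72 for Il18. All 9 were still above 0, and the adjusted p by edgeR was 0.999 for each. When NC_10 alone was left out, the log2 fold changes were 1.09 for Nlrp3, 0.37 for Pycard, 0.92 for Casp1, 0.36 for Casp4 and 0.50 for Gsdmd. They were 1.39 for Il1b, 0.20 for Il18, 0.96 for Il1rn and 0.91 for Il18bp, and edgeR called 0 of the 9.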

How the data were processed

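Messenger RNA of B16F10 tumours was counted in 7 libraries, 4 Zelnorm and 3 NC. Per the labels' protocols, libraries were made with a stranded mRNA kit, and the authors deposited raw read counts per gene. The submitters' processing notes name Trimmomatic, HISAT2, Cufflinks, HTSeq and DESeq and the builds GRCm38 and GRCh38, without versions or roles. Columns show the group only. The labels give no batch and do not say that each sample came from its own animal, so p-values measure only the spread between these samples, which may be technical.

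Genes kept by filterByExpr (minimum count 10, minimum total 15) were scaled by TMM and compared with edgeR 4.0.16 (quasi-likelihood, R 4.3.3), with Benjamini-Hochberg adjustment at 0.05 over all 12997 genes. Alternatives were RLE and upper-quartile scaling, no filter or a CPM of at least 1 in 3 libraries, DESeq2 1.42.0, limma 3.58.1 voom, a robust fit, a threshold of 0.1 and leaving out each library. Removal of the libraries highest in muscle transcripts, and the counts of genes at an unadjusted p under 0.05 and of genes without overlap, were added after seeing the data. The fit was tested on simulated counts, drawn independently for each gene. These held no shift of particular libraries, so that test does not show how the fit handles such shifts. Each SE of a log2 fold change was computed from the fold change and the F statistic of the edgeR test.

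The members and lists were chosen with earlier results of these data known. All 10 members are named, with up to 3 genes of each other list by smallest p and Aim2, Nlrp1b, Gsdme, Il1a, Il1r1, Il1r2 and Il18r1. One gene that the rule names is not reported here. CPM per kb uses exons of GENCODE M21 transcripts matched to RefSeq, clipped to the RefSeq gene. Figures were drawn with matplotlib 3.10.9. Floors cover counting error only.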

Additional observations from a re-analysis of the deposited data

Results flagged for a closer look

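Among 43 values examined for a library far from the rest of its group, 4 were found. Chance flags about 1 in 20 of such values, and values from the same libraries are not independent. Only the Zelnorm group was examined, as 3 NC libraries are too few. Il18 had 3.45 CPM in MBZ_15, the library with the most Il1b, against 5.33 to 5.64 CPM in the other 3 Zelnorm libraries. Il1rn had 5.12 CPM in MBZ_13, against 8.82 to 9.55 CPM in the others. Il18r1 had 1.24 CPM in MBZ_11, against 0.711 to 0.748 CPM in the others, a difference of few counts. Summed keratinocyte markers were 31.7 CPM in MBZ_11, against 3.51 to 5.68 CPM in the others.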

How the results depend on the processing

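Over 15 alternatives, 134 of 135 fold changes of the tested genes of the set kept their direction and their side of the threshold and 0 reversed. The exception was Il1rn, called by DESeq2 with a log2 fold change of 1.15, so DESeq2 called 1 gene of the set. The count of all genes called, 4 with the test reported, was 34 without a filter on low counts, 206 with DESeq2, 21 with the robust fit and 32 at an adjusted p under 0.1. It ranged from 0 to 161 when 1 library was left out: 0 without NC_5 (977 at an unadjusted p under 0.05), 161 without NC_10 and 21 without MBZ_15. Without the libraries highest in muscle transcripts it was 0 (547 unadjusted). In that fit 3 genes of the set had an unadjusted p under 0.05 and 5 showed no overlap, against 5 and 3 with all libraries. Leaving out 1 library gave 4 to 6 and 3 to 5, with 5 non-overlapping genes without MBZ_15 or without NC_6. Groups separate more easily when fewer libraries are left, and the share of all genes without overlap was not computed for these fits. The non-overlap counts of the reduced fits can therefore not be compared with that of all libraries. The cause of these shifts was not tested. No paired analysis was possible because the table's columns carry none of the replicate numbers in the sample titles. Low counts kept Nlrc4, Il1a and Nlrp1b out of the test.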
